A study of Mus musculus with 7 samples.

Results

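The small proteins of the Sprr, Lce and S100a families, together with Crct1, were followed in the dorsal skin of HR-1 mice that ate glucosylceramide (GC) or not and were then exposed to the detergent sodium dodecyl sulfate (SDS). Members were the genes whose name on the array begins with Sprr, Lce or S100a, S100a8 and S100a9 excepted, or equals Crct1. Because the array carries older names (6 Lce genes as Sprrl and 7 under provisional Rik names), a probe also counted when its accession or older symbol led to such a name in RefSeq. This gave 40 genes with 44 probes, out of 27670 genes with 41174 probes: 13 Sprr, 14 Lce and 12 S100a genes, and Crct1. By the printed name alone there would be 31 genes. Those 7 Lce genes would be missing, and so would Crct1 and S100a7l2, which the array also prints under Rik names. The array does not cover the families in full, since RefSeq (GRCm38.p6) lists 17 Sprr, 21 Lce and 13 S100a genes on chromosome 3.

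All samples were RNA of dorsal skin from male HR-1 mice, a hairless strain, labelled as 5 weeks old and kept on AIN-93G diet. Each of 7 arrays held a GC-fed and a control-fed sample in opposite dyes. On 3 arrays the mice had eaten the diet for 12 days with no SDS, and on 4 arrays for 14 days, with 2 daily applications of 10% SDS to the right side of the back. The GC-fed sample carried Cy3 on before-SDS array 1 and on after-SDS arrays 1 and 2, and Cy5 on the others. The labels call the arrays biological replicates without saying whether a sample is 1 mouse, so p-values measure the spread between these samples, which may be partly technical. Before-SDS and after-SDS arrays lay on different slides, so SDS, slide and days on diet cannot be told apart. In whole skin, fewer cells of a type and less RNA per cell cannot be told apart either.

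The 3 families lie side by side on mouse chromosome 3 in a cluster known as the epidermal differentiation complex. Sprr proteins (small proline-rich) and Lce proteins (late cornified envelope) are cross-linked by transglutaminases into the cornified envelope, the tough shell that replaces the membrane of dying keratinocytes; Lce1 genes are known as genes of normal outer epidermis, and Lce3, Sprr1 and Sprr2 genes for their rise in injured or inflamed skin. S100a proteins are small calcium-binding proteins that work mostly as dimers inside cells, several of them with annexins, and they are expressed far beyond the epidermis, including in hair follicles, fibroblasts and immune cells.

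Of the 40 members, 38 were measured, 37 of them well above background in 14 of 14 channels and S100a7a in 13. The probes of Sprr3 and S100a5 were not well above background in any channel (0 of 14). On each array the ratio is log2 of GC-fed relative to control-fed skin; a level is the log2 intensity of 1 sample after normalization. Levels are compared only within a gene, since different probes differ in brightness. Probe sequences were not used here, and near-identical copies (Lce1 genes among themselves, Sprr2a1 and its neighbours) may share a probe's signal.

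Promoters of selected members are printed first, as the bases just before the RefSeq transcription start (GRCm38.p6), 5′ to 3′. Of the 40 members, 34 had a promoter in the RefSeq table. The first set is 5 Lce1 and 2 Lce3 genes, 150 bases each, shown because the Lce1 genes moved as a block across the arrays and Lce3 did not follow them after SDS. Capitals mark ATAAAA, or TATAAA where it overlaps, on the coding strand within the last 50 bases.
Lce1b, chr3:92656927-92657076, minus strand: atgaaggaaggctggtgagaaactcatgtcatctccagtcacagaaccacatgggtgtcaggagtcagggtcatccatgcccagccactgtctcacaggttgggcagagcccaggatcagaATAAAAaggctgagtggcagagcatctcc
Lce1d, chr3:92687211-92687360, minus strand: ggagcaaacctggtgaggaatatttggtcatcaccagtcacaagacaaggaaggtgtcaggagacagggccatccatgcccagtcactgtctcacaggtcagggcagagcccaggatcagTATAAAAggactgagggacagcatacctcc
Lce1h, chr3:92765066-92765215, minus strand: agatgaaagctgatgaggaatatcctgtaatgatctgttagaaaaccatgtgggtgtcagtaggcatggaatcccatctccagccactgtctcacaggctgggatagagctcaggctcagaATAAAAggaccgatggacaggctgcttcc
Lce1l, chr3:92851287-92851436, minus strand: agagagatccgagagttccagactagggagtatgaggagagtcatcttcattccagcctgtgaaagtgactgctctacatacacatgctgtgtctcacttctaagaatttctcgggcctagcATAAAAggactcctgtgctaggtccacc
Lce1m, chr3:93019062-93019211, minus strand: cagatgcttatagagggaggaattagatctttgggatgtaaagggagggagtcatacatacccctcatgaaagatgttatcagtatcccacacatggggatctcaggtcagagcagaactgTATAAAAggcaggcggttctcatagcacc
Lce3c, chr3:92944336-92944485, plus strand: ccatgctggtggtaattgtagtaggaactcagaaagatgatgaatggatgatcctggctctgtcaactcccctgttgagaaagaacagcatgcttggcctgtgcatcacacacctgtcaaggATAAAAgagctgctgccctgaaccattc
Lce3f, chr3:92992067-92992216, plus strand: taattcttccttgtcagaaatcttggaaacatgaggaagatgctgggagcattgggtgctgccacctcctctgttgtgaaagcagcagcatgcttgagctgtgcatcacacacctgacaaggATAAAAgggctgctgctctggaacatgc

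ATAAAA stood on the coding strand within 50 bases of the start in 12 of 13 Lce promoters, against 2.6% of all 32851 promoters. Over the 250 bases before the start, aligned end to end, 9 of the Lce1 promoters, those other than Lce1l and Lce1m, shared a median of 66.4% of positions with one another (58.7% to 85.6% over 36 pairs). Lce1m shared a median of 49.3% with the other Lce1 promoters and Lce1l 51.6%, values close to the 49.6% median between Lce1 and Lce3 promoters (46.8% to 53.6% over 22 pairs). Lce3c and Lce3f shared 63.1% with each other.

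The second set is Sprr1b, with the largest difference after SDS among the Sprr genes, Sprr2d and S100a7l2, shown because the 3 promoters hold the letters TGANTCA, the core bound by AP-1 factors. Capitals mark TGANTCA, which reads the same on both strands, and TATAAA or ATAAAA as above; Sprr2d is printed over 250 bases because its match lies further out. The start that the table gives for S100a7l2 lies inside that gene's RefSeq span on its strand, and that for Sprr1b slightly inside, so these stretches lie before the start in the table and not before the outermost end of the gene.
Sprr1b, chr3:92438780-92438929, minus strand: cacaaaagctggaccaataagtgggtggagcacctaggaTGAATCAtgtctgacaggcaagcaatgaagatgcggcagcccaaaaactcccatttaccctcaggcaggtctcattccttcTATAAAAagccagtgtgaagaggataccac
Sprr2d, chr3:92338890-92339139, plus strand: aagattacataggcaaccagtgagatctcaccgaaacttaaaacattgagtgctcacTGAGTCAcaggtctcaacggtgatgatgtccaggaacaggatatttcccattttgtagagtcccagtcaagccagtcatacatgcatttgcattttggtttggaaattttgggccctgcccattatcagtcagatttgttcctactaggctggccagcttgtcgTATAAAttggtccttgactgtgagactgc
S100a7l2, chr3:91090806-91090955, minus strand: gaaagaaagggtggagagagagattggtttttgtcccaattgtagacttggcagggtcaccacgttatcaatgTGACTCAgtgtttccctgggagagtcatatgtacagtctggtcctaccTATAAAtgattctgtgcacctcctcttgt

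Within 250 bases of the start, TGANTCA was found on either strand for 8 of 11 Sprr genes and 3 of 10 S100a genes. For Lce it was found in 0 of 13. Of all 32851 promoters 6.7% held it. The promoters of S100a1, S100a3 and S100a7a, which with S100a7l2 passed in a comparison of SDS given below, did not hold it. TATAAA stood on the coding strand in the last 50 bases for 9 of 11 Sprr, 2 of 13 Lce and 2 of 10 S100a genes. The share over all promoters was 2.6%. Family counts are by gene: S100a3, with 4 promoters, and S100a16, with 2, counted where any promoter held the letters. A match describes these letters only, and no match says only that they are not in the window.

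The first comparison asked what GC in the diet did to the families before SDS. Most Lce1 genes had 1 sign on each array, above 0 on array 2 and below 0 on arrays 1 and 3. Before SDS no member was called (0 of 38, adjusted p under 0.05, limma over 17111 genes), beside 0% of all genes. At an unadjusted p under 0.05 there were 0 of 38 members and 68 of all genes. Lce genes had a median fitted log2 ratio of 0.10, with 13 of 14 above 0, Sprr genes 0.09 with 9 of 12 above 0, and S100a genes -0.12 with 1 of 11 above 0; the median of all genes was 0.00, with 48.7% above 0. The medians depended on which array was left out: without before-SDS array 1 they were 0.84 for Lce, 0.29 for Sprr and -0.26 for S100a, and without array 2 they were -0.25 and 0.01 for Lce and Sprr. Over all genes, the ratios of array 1, which had the opposite dye order, correlated at -0.40 with array 2 and -0.18 with array 3. Arrays 2 and 3 correlated at 0.23 with each other.

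Among the 12 Lce1 genes, which encode late cornified envelope proteins of normal skin, the arrays before SDS disagreed in direction while the genes of 1 array agreed. The median Lce1 ratio was -0.35 on array 1 with 1 of 12 genes above 0, 0.51 on array 2 with 11 of 12 above 0, and -0.20 on array 3 with 1 of 12 above 0. The SD over the 12 genes within an array was 0.17 to 0.22, smaller than the distance of array 2 from the other arrays. Lce1b had ratios of -0.53, 0.77 and 0.17 and Lce1h -0.27, 0.51 and -0.12. Their fitted diet differences were 0.17 (SE 0.42) for Lce1b and 0.14 (SE 0.37) for Lce1h, both with adjusted p = 1; both turned below 0 without array 2 (-0.18 and -0.20). Suprabasal keratinocyte markers had the sign of the Lce1 median on arrays 1 and 2 but not on array 3, with list medians of -0.15, 0.47 and 0.10 (8 markers on arrays 1 and 3 and 7 on array 2). The summed level of 7 of them was 245500 to 318800 in control-fed and 280100 to 327000 in GC-fed samples; their part in the Lce1 values was not tested.

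Before SDS the Sprr2 genes had medians of -0.08, 0.31 and 0.08 on the 3 arrays, and the S100a genes -0.03, 0.03 and -0.23. Sprr2g, a transcribed pseudogene in RefSeq, had ratios of -0.02, 0.39 and 0.01 and a fitted difference of 0.14 (SE 0.12, adjusted p = 1), which was 0.00 without array 2. Sprr2j-ps, also a pseudogene, stood at 0.00, 0.17 and 0.06. S100a6, or calcyclin, a calcium sensor of proliferating cells, had ratios of 0.37, -0.53 and -0.92, so that 2 of 3 arrays were lower in GC-fed skin (fitted -0.34, SE 0.30, adjusted p = 1; -0.98 without array 1 and -0.08 without array 3). S100a7a, the mouse relative of human psoriasin, stood at 0.18, -1.17 and 0.03, and its fitted difference of -0.32 (SE 0.31, adjusted p = 1) went to 0.10 without array 2. Crct1, a small cysteine-rich protein encoded among the Lce genes, stood at -0.46, 0.50 and 0.08, with a fitted difference of 0.03 (SE 0.24, adjusted p = 1; -0.19 without array 2 and 0.47 without array 1).

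**Figure D1:**
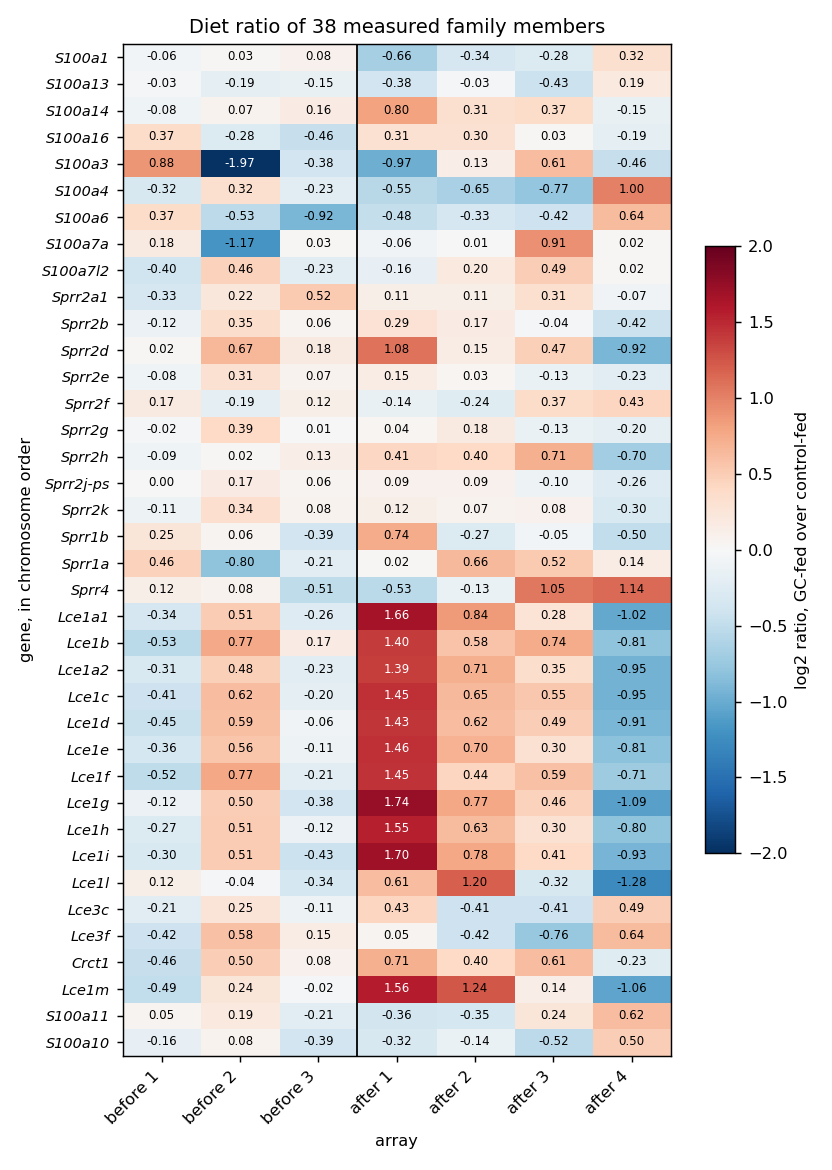
The log2 ratio between GC-fed and control-fed skin, positive where GC-fed is higher (colour and printed value) for each of the 38 measured members, in chromosome order from top to bottom, on the 3 arrays before and the 4 arrays after SDS. The Lce1 rows are above 0 on after-SDS arrays 1 to 3 (Lce1l on array 3 excepted) and below 0 on array 4, while Lce3c and Lce3f are below 0 on arrays 2 and 3 and above 0 on array 4.

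The second comparison asked the same after SDS. Lce1 had the highest subfamily median on after-SDS arrays 1 and 2 and the lowest on array 4. After SDS no member was called either (0 of 38, beside 0% of all 17111 genes, limma), and 1 of 38 members and 763 of all genes had an unadjusted p under 0.05. The fitted median was 0.42 for Lce with 13 of 14 above 0, 0.05 for Sprr with 6 of 12 above 0 and -0.12 for S100a with 5 of 11 above 0, beside 0.00 for all genes with 49.7% above 0. After-SDS array 4 correlated negatively with the other 3 over all genes (r of -0.50, -0.62 and -0.30, the last with array 3, which had the same dye order). The labelled direction was kept for it, and values are also given without it. With its sign turned, 12 of 38 members were called (8 higher, 4 lower), a share of 31.6% beside 10.7% of all genes. Array 4 was picked for this from the correlations in these same data. The turn therefore raises agreement between arrays by construction, and no conclusion on diet is drawn from that share.

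Lce1 genes had a median ratio of 1.45 on after-SDS array 1 with 12 of 12 above 0, 0.71 on array 2 with 12 of 12, 0.38 on array 3 with 11 of 12, and -0.94 on array 4 with 0 of 12. On array 4 the 12 genes lay between -1.28 and -0.71. Lce1i had ratios of 1.70, 0.78, 0.41 and -0.93, a fitted difference of 0.49 (SE 0.34, adjusted p = 0.835). Lce1h had ratios of 1.55, 0.63, 0.30 and -0.80 and a fitted difference of 0.42 (SE 0.31, adjusted p = 0.835). In both genes 3 of 4 arrays were above 0 and the SD between arrays (1.09 for Lce1i and 0.97 for Lce1h) exceeded the mean. Over arrays 1 to 3 alone the mean ratio was 0.96 for Lce1i and 0.83 for Lce1h. Leaving out array 1 took the fitted values to 0.14 for Lce1i and 0.08 for Lce1h, and the Lce median to 0.09. Without array 4 the Lce median was 0.86, and 2 members were called, neither of them an Lce gene: S100a4, lower, and Sprr2h, higher, a share of 5.26% of members beside 5.41% of all genes.

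Lce1m and Lce1l, whose promoters share the fewest positions with the rest, differed in how they sat with the block. Lce1m, which lies beyond the Lce3 genes and Crct1 on the chromosome, had ratios of 1.56, 1.24, 0.14 and -1.06 after SDS and had the sign of the Lce1 median on each of the 7 arrays. Lce1l had 0.61, 1.20, -0.32 and -1.28 and was the 1 Lce1 gene below 0 on after-SDS array 3. On before-SDS arrays 1 and 2 its ratios of 0.12 and -0.04 also had the opposite sign to the Lce1 median. In the authors' deposited table Lce1l differed from the scanner value by 1.4 on after-SDS array 1, the largest difference of any member on any array; the median member difference on that array was 0.037.

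Lce3c and Lce3f, of the Lce group known to rise in damaged and psoriatic skin, had the signs of the Lce1 genes on before-SDS arrays 1 and 2 but not on after-SDS arrays 2 to 4. Lce3c had ratios of 0.43, -0.41, -0.41 and 0.49 after SDS and Lce3f 0.05, -0.42, -0.76 and 0.64. The fitted differences were 0.02 for Lce3c and -0.12 for Lce3f. On array 4, where the 12 Lce1 genes were all below 0, both Lce3 genes were above 0. A second Lce3c probe gave 0.22, -0.50, -0.30 and 0.53, the same signs. The other probe of Lce1b had the same signs after SDS as well. The other probe of Lce1g gave 0.09 against 1.74 on after-SDS array 1. That of Sprr2a1 had the opposite sign to the probe used on each after-SDS array (-0.15, -0.48, -0.20 and 0.52 against 0.11, 0.11, 0.31 and -0.07).

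Crct1 sat between the groups, with ratios of 0.71, 0.40, 0.61 and -0.23 after SDS, a fitted difference of 0.37 (SE 0.20, adjusted p = 0.835), which ran from 0.21 without array 1 to 0.64 without array 4. Like the Lce1 genes it was above 0 on arrays 1 to 3 and below 0 on array 4.

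**Figure D2:**
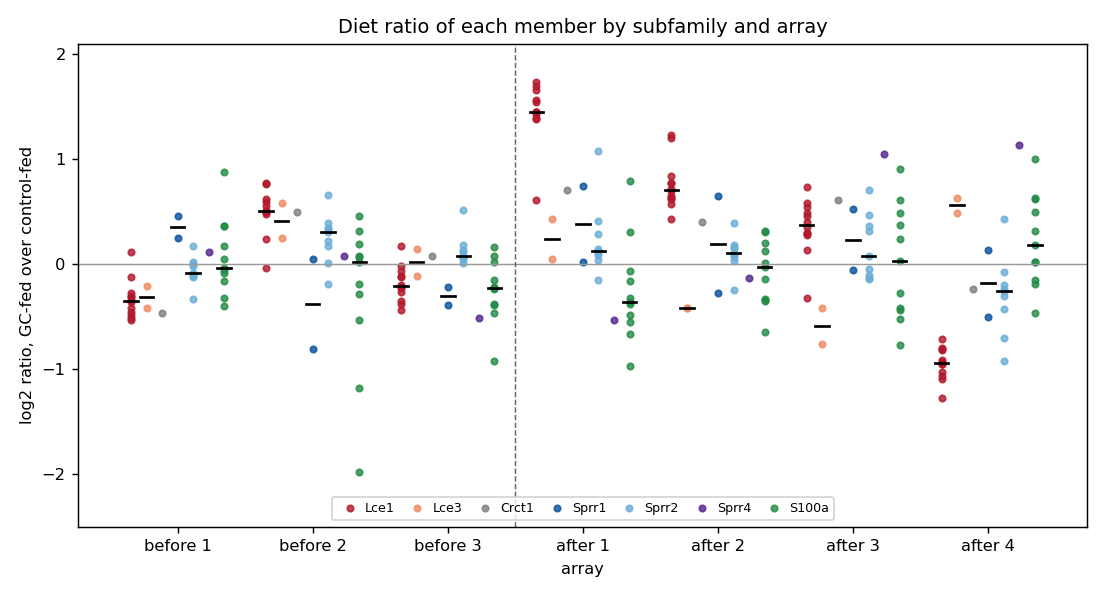
The log2 ratio between GC-fed and control-fed skin, positive where GC-fed is higher (vertical axis) of each measured member (points) on each array (horizontal axis), coloured by subfamily, with a black bar at the median where a subfamily has more than 1 gene. The Lce1 median is 1.45 on after-SDS array 1 and -0.94 on array 4, where Lce3 and Sprr4 lie above 0.

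Sprr genes were scattered after SDS. Sprr1a, a cross-linked envelope precursor that is known to rise in stressed epidermis, was above 0 on all 4 arrays (0.02, 0.66, 0.52 and 0.14), with a fitted difference of 0.34 (SE 0.18, adjusted p = 0.835). Before SDS it had been above 0 on array 1 (0.46) and below 0 on arrays 2 and 3 (-0.80 and -0.21). Sprr1b had 0.74, -0.27, -0.05 and -0.50. Sprr4 had -0.53, -0.13, 1.05 and 1.14, below 0 on arrays 1 and 2 and above 0 on arrays 3 and 4, with a fitted difference of 0.38 (SE 0.24, adjusted p = 0.835). Sprr2d, at 1.08, 0.15, 0.47 and -0.92, and Sprr2h, at 0.41, 0.40, 0.71 and -0.70, had the sign of the Lce1 genes on each after-SDS array. The other Sprr2 genes lay between -0.42 and 0.43 on these arrays. Among them Sprr2k (0.12, 0.07, 0.08 and -0.30) and the probe used for Sprr2a1 (0.11, 0.11, 0.31 and -0.07) also had the Lce1 signs throughout.

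S100a genes went in both directions after SDS. S100a14, a protein of epithelial cells, had 0.80, 0.31, 0.37 and -0.15, the sign of the Lce1 genes on each array. S100a16 shared these signs, at 0.31, 0.30, 0.03 and -0.19. S100a14 was the member with the lowest p in limma's fit (fitted 0.33, SE 0.14, unadjusted p = 0.0453, adjusted p = 0.835). Without array 1 its difference was 0.18. S100a1, known mainly from muscle, had the opposite signs at -0.66, -0.34, -0.28 and 0.32 (fitted -0.24, SE 0.12, adjusted p = 0.835). S100a4, a protein of fibroblasts and motile cells, had -0.55, -0.65, -0.77 and 1.00, and S100a6 -0.48, -0.33, -0.42 and 0.64. S100a10, the partner of annexin A2, had -0.32, -0.14, -0.52 and 0.50, and S100a11 -0.36, -0.35, 0.24 and 0.62. Macrophage markers had list medians of -0.66, -0.40, -0.99 and 0.34 on the same arrays, neutrophil markers -0.11, -0.70, -0.86 and 0.85, and suprabasal keratinocyte markers 1.22, 0.61, 0.60 and -0.61. Whether these cell markers account for any member's ratio was not tested. The summed macrophage level was 48590 to 72360 in control-fed and 37380 to 68390 in GC-fed samples after SDS, over 10 of 10 markers measured. S100a8 and S100a9, the neutrophil alarmins that the choice of members left out, were at -1.58 and -2.36 on after-SDS array 1 and at 1.93 and 1.72 on array 4. Of the 13 neutrophil markers 8 were measured; Camp, Ngp, Ltf and Elane were not above background in enough channels.

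In the main fit the diet difference did not differ detectably before and after SDS in any member. Of 38 members 0 were called for the change in diet difference, beside 0% of all genes (limma). At an unadjusted p under 0.05 there were 0 of 38 (207 of all genes). That last count depended on the setting. It was 17 with a block for replicate number (1194 of all genes) and 8 without after-SDS array 4 (2037). With the sign of array 4 turned, chosen from these same data, it was 13 (2237 of all genes). The remaining settings gave 0 to 4 members. The largest values were 0.61 for Sprr4 (SE 0.37), 0.54 for S100a7a (SE 0.40), 0.45 for Sprr1a (SE 0.28), 0.44 for Lce1i (SE 0.53) and 0.41 for Lce1m (SE 0.54), each with adjusted p = 1. For S100a16, a widely expressed S100 protein, it was 0.15 (SE 0.12) and for Crct1 0.35 (SE 0.31), also with adjusted p = 1. These values moved with single arrays: left out in turn, they ran from 0.28 to 1.31 for Sprr4, 0.12 to 1.04 for S100a7a and 0.21 to 0.84 for Sprr1a. They turned below 0 without before-SDS array 1 for Lce1i (-0.30), Lce1m (-0.57) and Crct1 (-0.10). The members' median SE was 0.34 in this comparison, against 0.13 over all genes. No member had all before-SDS ratios on 1 side of 0 and all after-SDS ratios on the other.

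The third comparison set skin after SDS against skin before it, within each diet. The members called were S100a genes: S100a7l2 lower and S100a3 higher under both diets, S100a1 higher in control-fed and S100a7a in GC-fed skin. The S100a1 and S100a7a calls each held in only 1 of 7 fits with an array left out. In control-fed skin 3 of 38 members were called (2 higher, 1 lower; limma's separate-channel fit), beside 15.1% of all 17064 genes (6.7% higher and 8.44% lower). In GC-fed skin 3 of 38 were called (2 higher, 1 lower), beside 13.6% (6.13% higher and 7.46% lower). The members' share was below the background in both, and 0 Sprr and 0 Lce genes were among them. The members' median SE was 0.238 under each diet, against 0.0971 over all genes. A typical member therefore needed a larger difference to be called. At an unadjusted p under 0.05 there were 7 of 38 members under each diet, against 5566 and 5159 of all genes.

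S100a7l2, an S100a7-like gene of which little is known, had levels of 11.09, 10.60 and 10.88 in control-fed skin before SDS and of 9.96, 9.65, 9.74 and 9.92 after it. In GC-fed skin the levels were 10.70, 11.06 and 10.66 before and 9.80, 9.85, 10.22 and 9.94 after. Under both diets every sample after SDS was below every sample before it; 30.8% of all genes had groups that did not overlap in control-fed skin and 23.5% in GC-fed skin. The gene fell by 1.07 on the log2 scale in control-fed skin (SE 0.13, adjusted p = 0.00119) and by 0.82 in GC-fed skin (SE 0.13, adjusted p = 0.00451). The call held with each array left out in turn; with no normalization between arrays, 0 of all genes were called by limma, and 1 member had an unadjusted p under 0.05 under each diet. The diets did not differ detectably in this fall (0.25, SE 0.22, adjusted p = 1).

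S100a3, a calcium-binding protein known from the cuticle cells of the hair shaft, had levels of 11.78, 13.66 and 12.25 in control-fed skin before SDS and of 14.52, 13.86, 13.62 and 14.13 after. In GC-fed skin they were 12.66, 11.68 and 11.87 before and 13.55, 13.99, 14.23 and 13.67 after. Groups overlapped in control-fed skin, where before-SDS sample 2 lay above the lowest after-SDS sample, and did not overlap in GC-fed skin. S100a3 rose by 1.52 in control-fed (SE 0.38, 2.86-fold, adjusted p = 0.0203) and by 1.75 in GC-fed skin (SE 0.38, 3.36-fold, adjusted p = 0.0134). In control-fed skin the call was lost when array 1 (0.96) or 3 (1.32) of the before set, or array 2 of the after set (1.52), was left out. In GC-fed skin it was lost when array 3 of the before set (1.70) or of the after set (1.49) was left out. Hair follicle markers, a list that does not hold S100a3, also had higher values after SDS: 14 of 14 measured were above 0 under both diets, with 6 called in control-fed and 11 in GC-fed skin, and medians of 0.96 and 1.59. The list's summed level was 80950 to 449100 before and 217900 to 509300 after SDS in control-fed samples. In GC-fed samples it was 75080 to 200000 before and 307500 to 512000 after. S100a3 also ran with that list by array, with diet ratios of 0.88, -1.97 and -0.38 before SDS beside list medians of 1.07, -2.16 and -0.29. After SDS its ratios were -0.97, 0.13, 0.61 and -0.46, beside list medians of -0.60, 0.14, 1.06 and -0.13. The part of hair follicle content in the S100a3 values was not tested.

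S100a1 had levels of 11.18, 11.12 and 11.08 in control-fed skin before SDS and of 11.68, 11.55, 11.48 and 11.24 after, with no overlap. It rose by 0.33 (SE 0.10, 1.26-fold, adjusted p = 0.0402). In GC-fed skin its difference was 0.14, with overlapping groups, and the 2 diets' differences did not differ detectably (-0.20, SE 0.18, adjusted p = 1). The call held without after-SDS array 4 and was lost without any of the other 6 arrays (differences of 0.26 to 0.36). It was also lost with Agilent's processed signals, median centring, no filter on dim probes, probes averaged, a replicate block and the authors' deposited table, and held in 6 of 19 alternatives. Over its alternatives the S100a1 difference ran from 0.0078 to 0.42. S100a7a had levels of 7.66, 7.21 and 7.62 in GC-fed skin before SDS and of 8.38, 8.09, 8.68 and 8.06 after, with no overlap. It rose by 0.81 (SE 0.23, 1.75-fold, adjusted p = 0.0386). In control-fed skin it was 7.48, 8.39 and 7.60 before and 8.44, 8.08, 7.77 and 8.05 after, a difference of 0.27. The change between diets was 0.54 (SE 0.40, adjusted p = 1). The S100a7a call held without before-SDS array 1 (1.02) and was lost without any of the other 6 arrays (0.59 to 0.91). It was also lost under the same settings within the scanner files, and held in 6 of 18 alternatives. Over these the S100a7a difference ran from 0.49 to 1.85. Its probe was the dimmest of the measured members, with an average log2 intensity of 7.95. The probes of Sprr3 and S100a5, not well above background in any channel, averaged 7.23 and 7.31. Skeletal muscle markers, where S100a1 is known to be abundant, (12 of 12 measured) had list medians of 0.35 in control-fed and -0.30 in GC-fed skin; their part in the S100a1 value was not tested.

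**Figure D3:**
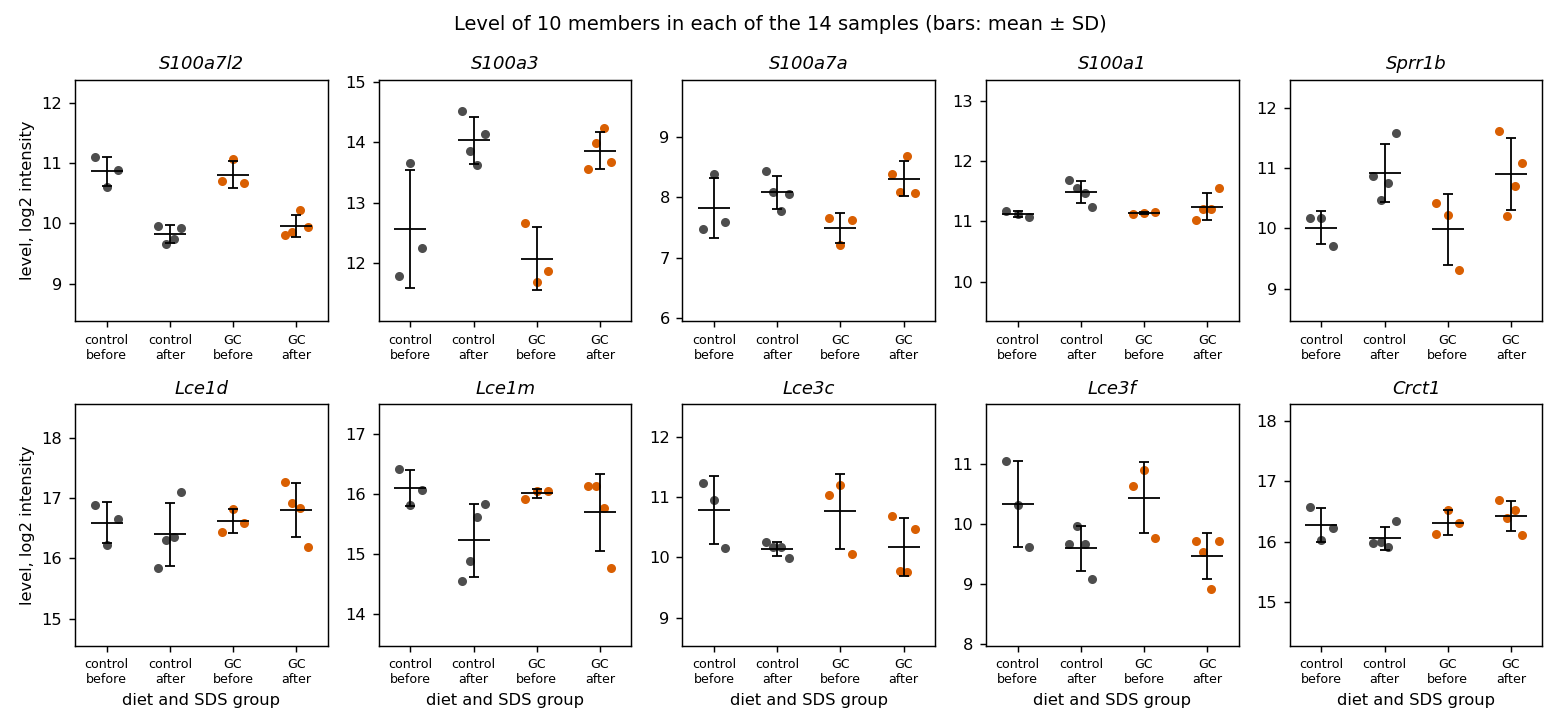
The level (log2 intensity, vertical axis, each panel spanning 4 log2 units) of 10 members in each of the 14 samples (points), with the mean and SD of each diet and SDS group as bars, control-fed in grey and GC-fed in orange. S100a7l2 is lower in every sample after SDS than in any sample before it under the same diet, and the other panels except S100a1, S100a7a and S100a3 hold no called difference.

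After SDS 12 of 14 Lce genes had lower values in control-fed skin, with a median of -0.33 beside 0.00 for all genes, and none passed. That median turned to 0.10 without before-SDS array 1 and was -0.56 without after-SDS array 4. In GC-fed skin 7 of 14 were below 0, with a median of -0.07, which ran from -0.39 to 0.20 on leaving out those same arrays. Lce1m had levels of 16.41, 15.82 and 16.06 in control-fed skin before SDS and of 14.56, 14.89, 15.62 and 15.84 after, a difference of -0.80 (SE 0.30, adjusted p = 0.0904). Without before-SDS array 1 it was -0.25 (adjusted p = 0.601). Without after-SDS array 4 it was called at -1.01 (adjusted p = 0.0158), as were 3 other Lce1 genes, Lce1b, Lce1c and Lce1h, and the members called in control-fed skin went from 3 to 7, or 18.4% beside 21.3% of all genes. Lce3f had levels of 11.05, 10.32 and 9.62 in control-fed skin before SDS and of 9.67, 9.96, 9.67 and 9.08 after (-0.76, SE 0.35, adjusted p = 0.147). In GC-fed skin it was at 10.64, 10.90 and 9.77 before and at 9.72, 9.54, 8.91 and 9.71 after, with no overlap (-0.93, SE 0.35, adjusted p = 0.0936). Without before-SDS array 3 Lce3f was called under both diets, at -1.11 and -1.31, while its difference was -0.40 without before-SDS array 1 in control-fed and -0.63 without after-SDS array 3 in GC-fed skin. Lce3c differed by -0.58 in GC-fed skin (SE 0.32, adjusted p = 0.249), from 11.03, 11.21 and 10.05 to 10.68, 9.77, 9.76 and 10.47, and by -0.37 without before-SDS array 2. Suprabasal keratinocyte markers had medians of -0.39 in control-fed and -0.05 in GC-fed skin, with 0 of 7 called; their part in the Lce values was not tested. Both Lce3 genes were at lower values after SDS under both diets, with medians of -0.71 and -0.76, and neither passed. Crct1 was at 16.58, 16.03 and 16.23 in control-fed skin before SDS and at 15.98, 15.99, 15.92 and 16.35 after (-0.23, SE 0.17, adjusted p = 0.365). In GC-fed skin it was at 16.12, 16.53 and 16.31 before and 16.69, 16.39, 16.53 and 16.11 after (0.12, SE 0.17, adjusted p = 0.673).

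Among Sprr genes, Sprr1b had the largest difference, with levels of 10.16, 10.17 and 9.70 in control-fed skin before SDS and of 10.87, 10.46, 10.76 and 11.58 after. Groups did not overlap, and the difference was 0.94 (SE 0.34, adjusted p = 0.0803). In GC-fed skin it went from 10.41, 10.22 and 9.31 to 11.61, 10.19, 10.70 and 11.08, with overlap (0.88, SE 0.34, adjusted p = 0.108). Without after-SDS array 2 the GC-fed difference was called at 1.13 (adjusted p = 0.0416). Sprr2d stood next, at 0.77 in control-fed and 0.62 in GC-fed skin. Sprr2e differed by 0.24 in control-fed skin (SE 0.11, adjusted p = 0.144) and Sprr2g by -0.31 in GC-fed skin (SE 0.13, adjusted p = 0.137). The family median was 0.02 in control-fed and 0.14 in GC-fed skin. S100a genes had a median of 0.07 and 0.14. Wound keratinocyte markers, keratins and connexins of activated epidermis, were above 0 in 5 of 6 cases under both diets with 1 called under each; their part in the Sprr1b values was not tested.

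**Figure D4:**
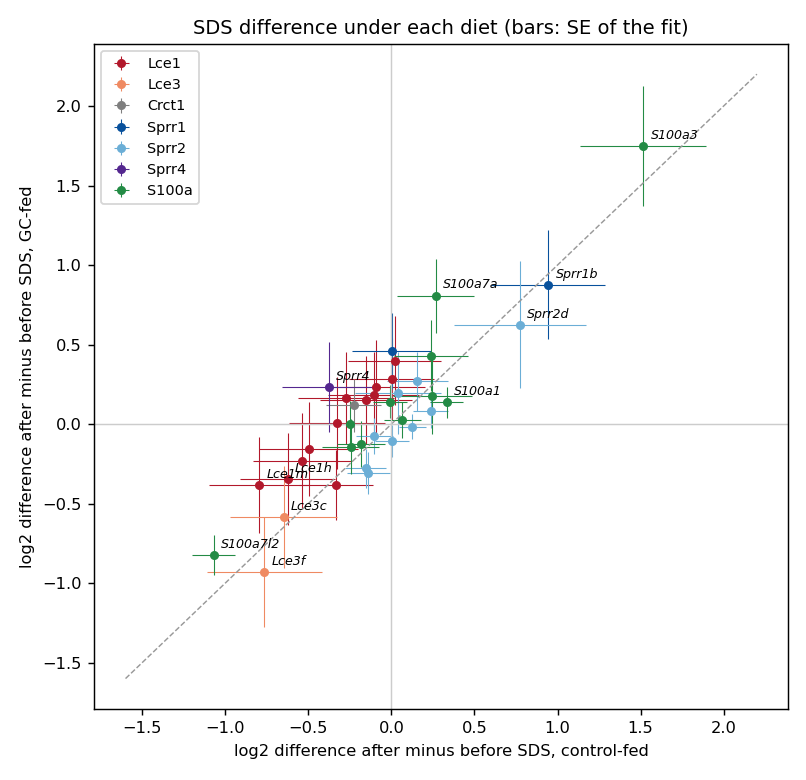
The log2 difference after minus before SDS of each measured member in control-fed (horizontal) against GC-fed skin (vertical), with the SE of the fit as bars, coloured by subfamily; the dashed line marks equal differences. The axes use separate samples, but each control-fed sample shares an array with a GC-fed sample. Before-SDS and after-SDS arrays lay on different slides, so a difference between slides would enter both axes. S100a3 lies at 1.52 and 1.75 and S100a7l2 at -1.07 and -0.82, with the Lce3 genes at lower left.

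The other genes of the cornified envelope, a list of 26 with 22 measured, are given for comparison. The diet ratio after SDS was above 0 in 20, 21 and 21 of 22 on arrays 1 to 3 and in 1 of 22 on array 4, with medians of 0.89, 0.54, 0.62 and -0.59, and 0 of 22 were called. Flg (filaggrin, which bundles keratin) had ratios of 1.82, 0.64, 0.55 and -1.11, Lor (loricrin, the main envelope protein) 1.90, 0.76, 0.69 and -1.15, and Ivl (involucrin, the envelope's first scaffold) 0.40, 0.71, 0.51 and -0.76. Before SDS they stood at -0.15, 0.61 and 0.42 for Flg, at -0.51, 0.59 and 0.40 for Lor and at 0.03, 0.15 and -0.47 for Ivl. After SDS 3 of 22 fell and 0 rose in control-fed skin, and 4 of 22 fell and 0 rose in GC-fed skin, where 8.44% and 7.46% of all genes were called lower and 15.1% and 13.6% in either direction. Ppl (periplakin, a scaffold of the envelope) fell by 1.01 and 0.79 (adjusted p = 0.00514 and 0.0168) and Casp14 (a protease of cornification) by 0.91 and 0.76 (adjusted p = 0.0185 and 0.0409) under control and GC diet. Krtdap fell by 0.78 in control-fed skin (adjusted p = 0.0339). Rptn (repetin) fell by 0.73 and Tgm5 (a transglutaminase) by 0.56 in GC-fed skin (adjusted p = 0.0341 and 0.0295). Of these 7 calls, Ppl in control-fed skin held with 6 of 7 arrays left out (lost without before-SDS array 1) and Ppl in GC-fed skin with 4 of 7 (lost on leaving out array 2 or 3 before SDS, or array 3 after it). The other 5 held with 0 to 2 of 7. With probes averaged Ppl was at -0.71 and -0.42 and was not called under either diet. Flg differed by -0.10 and -0.03 and Lor by -0.11 and 0.19 after SDS, with adjusted p of 0.756 or more, and Ivl by -0.64 and -0.41 (adjusted p = 0.0649 and 0.229).

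Among S100 partners, annexins and other genes whose products pair with S100 proteins or are related to them, 8 of 11 were measured and 0 were called for diet. After SDS 0 of 7 were called in control-fed and 1 of 7 in GC-fed skin: Anxa2, the partner of S100a10, fell by 0.69 (adjusted p = 0.0381). That call held with after-SDS array 1 or 4 left out and was lost without any of the other 5. S100a10 itself differed by -0.18 in control-fed and -0.12 in GC-fed skin.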

How the data were processed

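RNA of dorsal skin was measured on 7 Agilent 2-colour arrays. The deposited scanner files hold spot intensity written by Agilent Feature Extraction 9.1.3.1, per the file headers. The authors' deposited gene table holds log2 ratios made from intensities floored at 200 (checked on its values), and it served as an alternative. The array files name no genome build, and the promoter positions are on GRCm38.p6.

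Mean signals were background-corrected (normexp, offset 50) and loess-normalized with control spots at weight 0. A probe was kept where the scanner software marked it above background in 3 or more of the 14 channels (25177 probes), with the probe of highest average intensity for each of 17111 genes. Diet ratios were fitted with limma 3.58.1 (R 4.3.3) with terms for before SDS, after SDS and dye. Levels were scaled between arrays (Aquantile) and fitted as separate channels over 17064 genes, with 4 diet and SDS groups and dye. P-values were adjusted by the Benjamini-Hochberg method over all genes, with 0.05 as the threshold, and the scripts were tested on simulated data. Probes were named by accession, current symbol or older symbol in RefSeq, or else by the printed name. Promoters were compared with Biopython 1.88.

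The members and all gene lists were chosen with earlier results of these data known. Values in every sample are given for called members, for the 2 members of smallest p per family and comparison, and for Crct1; from the other cornified envelope genes for at most 4 called per comparison and Flg, Lor and Ivl, and from S100 partners for at most 2 called. Alternatives were other background corrections, normalizations, filters and probe rules, no dye term, a replicate block, each array left out, the sign of after-SDS array 4 turned and the authors' table.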

Additional observations from a re-analysis of the deposited data

Results flagged for a closer look

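In 122 sets of 4 after-SDS values, the gap between the highest or lowest value and its nearest neighbour was set against the whole range of the 4. A gap above 0.829 of the range picked out 9 sets, and chance gives about 1 in 20, or 6.1. After-SDS array 4 was the odd value in 7 of the 9, S100a7a on array 3 and Sprr4 on array 1 being the others.

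In the diet ratios after SDS, S100a4 stood highest on array 4 (1.00, against -0.77 to -0.55 on the others), a gap of 0.875 of the range. S100a6 was also highest on array 4 (0.64, against -0.48 to -0.33), with a gap of 0.864. S100a7a was highest on array 3 (0.91, against -0.06 to 0.02), with a gap of 0.914. Sprr2k was lowest on array 4 (-0.30, against 0.07 to 0.12), with a gap of 0.866, and so was the median of the 9 Sprr2 genes (-0.26, against 0.08 to 0.12), with a gap of 0.893.

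In the levels, Sprr4 in control-fed skin was highest on array 1 (11.25, against 10.08 to 10.25), with a gap of 0.852. In GC-fed skin S100a6 was highest on array 4 (16.63, against 16.05 to 16.12), with a gap of 0.878, and S100a10 was highest there too (15.10, against 14.60 to 14.63), with a gap of 0.924. Lce1c in GC-fed skin was lowest on array 4 (14.66, against 15.56 to 15.71), with a gap of 0.85. The cause of these values was not tested.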

How the results depend on the processing

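Of 92 counts of called members under the alternatives, 81 stayed within 1.5 times the count reported. For the diet comparisons the count reported was 0, and counts that remained 0 are among these. Of 276 family medians 262 stayed within the spread between replicates, the SD of the family's median over arrays or samples. That spread was wide for Lce in the diet ratio after SDS, with medians of 1.45, 0.68, 0.33 and -0.92 on the 4 arrays. A median could therefore move far and still count as unchanged. The cause of the changes was not tested. With each array left out in turn, called members ran from 0 to 2 for diet after SDS, from 1 to 7 for SDS in control-fed and from 1 to 4 in GC-fed skin, and stayed at 0 for diet before SDS and for its change. Family medians then ran from 0.0089 to 0.29 (Sprr), -0.25 to 0.84 (Lce) and -0.26 to -0.015 (S100a) for diet before SDS, from -0.05 to 0.13, 0.09 to 0.86 and -0.16 to 0.11 for diet after SDS, from -0.27 to 0.05, -0.43 to 0.86 and -0.08 to 0.17 for the change in diet difference, from -0.08 to 0.13, -0.56 to 0.10 and -0.033 to 0.14 for SDS in control-fed skin, and from 0.00 to 0.24, -0.39 to 0.20 and 0.03 to 0.23 in GC-fed skin, in the same order. With the sign of after-SDS array 4 turned, 12 members were called for diet after SDS and 11 for SDS in control-fed skin, and the S100a median was -0.14 for the change in diet difference and 0.15 for SDS in control-fed skin. That setting was chosen from the array correlations in these same data. With no normalization between arrays, 0 members were called by limma in either SDS comparison (1 in each at an unadjusted p under 0.05), the median of all genes moved to -0.26, and the medians were -0.25 (Sprr) and -0.18 (S100a) in control-fed and -0.17 and -0.19 in GC-fed skin. The authors' deposited table called 1 member under each diet, S100a3; it does not hold S100a7l2, S100a5 or Sprr3. Members by printed name alone, an alternative chosen after seeing the data, gave an S100a median of 0.15 for SDS in control-fed skin. S100a7l2 is not a member by that rule, so its calls under both diets drop out. Genes called over the whole array, 2584 and 2319 for SDS in control-fed and GC-fed skin, were 1171 and 1192 with median centring, 1262 and 1143 with probes averaged, 1588 and 1018 in the authors' deposited table, and 1335 in GC-fed skin with Agilent's processed signals. They were 4358 in control-fed skin with the sign of after-SDS array 4 turned, and ran from 142 to 3637 and from 529 to 2696 with each array left out.

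Whether replicate numbers pair the samples could not be told from so few values. Same-numbered before and after samples correlated at -0.13, -0.09 and 0.29 in control-fed and at 0.09, -0.19 and -0.13 in GC-fed skin. Differently numbered samples correlated at -0.29 to 0.36 in control-fed and at -0.06 to 0.20 in GC-fed skin. With a replicate block, 2 members were called under each diet (1691 and 1536 of all genes), and the medians of the change in diet difference were 0.13 (Sprr) and -0.15 (S100a). The number of arrays limits the precision; Sprr3 and S100a5 were not well above background.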
